A study of Mus musculus with 12 samples.

Results

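Scd1 and 9 further genes of fatty acid synthesis, desaturation and elongation (Scd2, Fasn, Acaca, Elovl1, Elovl5, Elovl6, Elovl7, Fads1 and Fads2) were examined in the dorsal hippocampus, 10 of the 24985 genes of the count table. Scd1 was selected on its measured values over the 4 groups described here, so its levels and its differences between groups are a description and were not tested. Its relation to myelin genes within groups comes from the same mice and is likewise a description. The other 9 were taken as enzymes of the same pathway. All 10 passed the filter on low counts, as did 14742 genes in all.

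RNA from 12 C57Bl6/J mice, 3 per group, was measured by bulk RNA-seq of polyadenylated RNA. One arm was sham-injected with PBS and the other with 1 µg of AD tau, pathological tau purified from human Alzheimer's disease cortex, on 1 side of the brain. In each arm, mice were fed either a control diet (standard chow from TestDiet, matched in calories per the study's methods) or LabDiet 5001 with 5% sodium acetate. The 4 groups are called PBS control and PBS acetate for the sham-injected mice, and tau control and tau acetate for the seeded mice. No group carried a transgene or a deletion. The mice were injected at 6 months of age and the tissue was taken 6 months after injection, from the right hemisphere, 24 h after a memory test. The labels give all 12 mice as male, whereas Xist was counted in 12 of 12 libraries and the Y chromosome genes examined had 0 counts in total. The counts thus disagree with the labelled sex. Libraries held 12983233 to 20218340 counted reads. Values are CPM after TMM scaling, the reads of a gene scaled to a library of 1000000 counted reads.

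De novo fatty acid synthesis starts from acetyl-CoA, which Acaca (acetyl-CoA carboxylase 1) converts to malonyl-CoA and Fasn (fatty acid synthase) extends to palmitate. Elongases of the Elovl family lengthen these and dietary fatty acids at the endoplasmic reticulum, Scd1 and Scd2 (stearoyl-CoA desaturases) place the first double bond in saturated acyl chains, and Fads1 and Fads2 desaturate polyunsaturated chains. In the brain, much of the product goes into membranes, above all the myelin made by oligodendrocytes.

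The upstream sequences of 3 of these genes are shown because the genes stand for different behavior in these mice: Elovl7, which was lower with acetate in PBS-injected mice, Elovl5, whose differences had the same signs as those of Scd1, and Fasn, which hardly varied between groups. Each run is the 250 bases before the RefSeq start site on GRCm38.p6, written 5′ to 3′ on the strand of the gene. Capitals mark CCAAT and GGGCGG on either strand, the letters of the CCAAT box and of the GC box bound by Sp factors. The Elovl7 run lies at chr13:108214154-108214403 (plus strand), the Elovl5 run at chr9:77917115-77917364 (plus strand) and the Fasn run at chr11:120824548-120824797 (minus strand).
Elovl7: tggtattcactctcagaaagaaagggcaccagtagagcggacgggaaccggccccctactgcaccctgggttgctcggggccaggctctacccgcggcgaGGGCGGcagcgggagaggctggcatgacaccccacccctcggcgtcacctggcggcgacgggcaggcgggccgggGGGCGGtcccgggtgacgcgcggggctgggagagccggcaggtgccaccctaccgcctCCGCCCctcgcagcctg
Elovl5: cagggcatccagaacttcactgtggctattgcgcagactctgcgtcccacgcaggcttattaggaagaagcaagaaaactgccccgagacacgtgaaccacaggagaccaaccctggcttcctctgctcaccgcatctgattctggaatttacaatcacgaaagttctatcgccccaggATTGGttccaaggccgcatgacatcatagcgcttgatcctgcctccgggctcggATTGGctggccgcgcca
Fasn: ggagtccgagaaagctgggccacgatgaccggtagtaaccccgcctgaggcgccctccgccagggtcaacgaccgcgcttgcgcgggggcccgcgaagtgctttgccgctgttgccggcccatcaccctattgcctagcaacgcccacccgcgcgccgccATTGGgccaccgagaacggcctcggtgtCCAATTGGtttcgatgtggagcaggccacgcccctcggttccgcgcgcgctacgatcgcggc

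The Elovl7 run held 3 GC boxes and 0 CCAAT boxes, the Elovl5 run held 2 CCAAT boxes and 0 GC boxes, and the Fasn run held 3 CCAAT matches, of which 2 overlap on opposite strands, and 0 GC boxes. Among 32851 RefSeq mouse promoters of the same length, 33.8% held the CCAAT box and 32.7% the GC box. The E-box read by bHLH factors, spelled CACGTG and not capitalized above, stood once in the Elovl5 run and in 6.02% of all promoters. A sterol regulatory element, spelled TCACNCCAC and searched on both strands like the others, was in 1.05% of all promoters and in none of the 8 entries of the 7 members that were matched. The matched members were Fasn, Acaca, Elovl1 (with 2 entries), Elovl5, Elovl6, Elovl7 and Fads2. The Acaca entry, at chr11:84195188-84195437, lies inside the annotated gene (chr11:84129672-84401651), so it belongs to an internal start site. One of the Elovl1 entries also lies inside its gene. The entry of Elovl6, which was also lower with acetate in PBS-injected mice, held none of the 4 motifs. A match of letters is a description and says nothing of binding. Scd1, Scd2 and Fads1 were not matched.

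Scd1, which makes oleate and palmitoleate, had 214, 211 and 195 CPM in the 3 PBS control mice and 166, 161 and 153 CPM in the PBS acetate mice. In the tau control mice it had 161, 150 and 168 CPM, and in the tau acetate mice 220, 199 and 188 CPM. The PBS control and tau acetate mice thus lay high and the other two groups low, and no mouse of a high group overlapped a low group. The lowest and highest of the 12 mice differed 1.47-fold. Group means were 207 ± 9.70, 160 ± 6.35, 160 ± 9.31 and 202 ± 16.1 CPM (SD, n = 3) in that order. On the log2 scale, the difference between tau and PBS was -0.37 on the control diet (SE 0.06) and 0.34 on the acetate diet (SE 0.06), and the difference between acetate and control diet was -0.37 in PBS-injected (SE 0.06) and 0.34 in tau-injected mice (SE 0.06). The diet difference in tau-injected mice minus that in PBS-injected mice, the interaction, was 0.71 (SE 0.09). These are the values on which Scd1 was chosen.

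**Figure D1:**
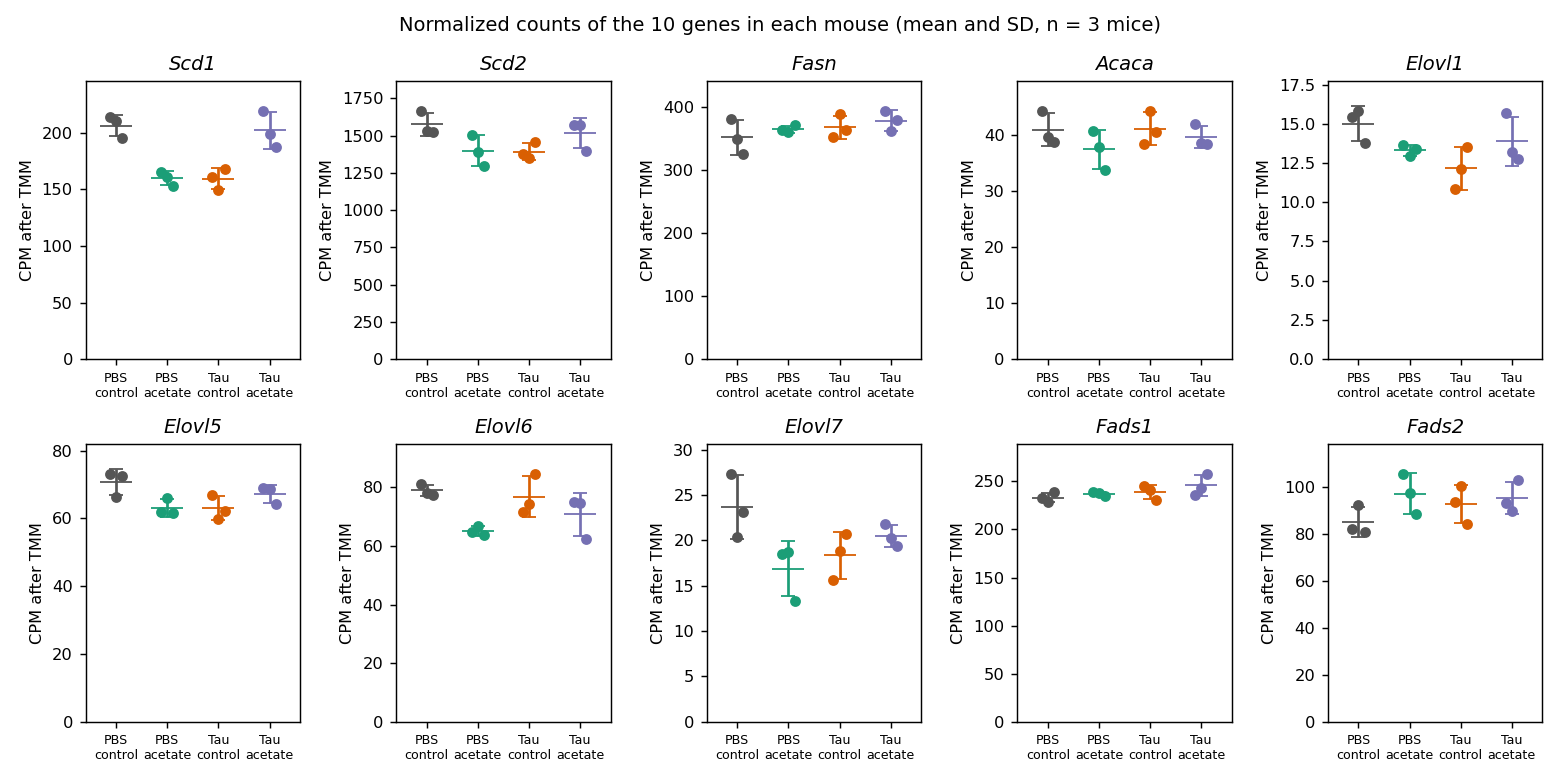
Each panel plots 1 gene, with CPM after TMM scaling on a linear axis from 0 and the 4 groups along the horizontal axis. Points are single mice, and the line and bars are the mean and SD of 3 mice. For Scd1 the PBS control and tau acetate mice lie between 188 and 220 CPM, and the PBS acetate and tau control mice between 150 and 168 CPM.

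Scd2, the desaturase with the highest level of these genes, had 1667, 1533 and 1525 CPM in PBS control mice and 1506, 1393 and 1298 CPM in PBS acetate mice. It had 1375, 1350 and 1455 CPM in tau control mice and 1574, 1575 and 1399 CPM in tau acetate mice. The group means were ordered high, low, low and high as for Scd1, with less distance between them, and tau acetate mouse 3 overlapped the tau control mice. The log2 difference was -0.18 (SE 0.06, adjusted p = 0.371) for tau on the control diet and -0.17 (SE 0.06, adjusted p = 0.120) for acetate in PBS-injected mice by edgeR's quasi-likelihood test. The interaction was 0.29 (SE 0.09, adjusted p = 0.139) by edgeR, and DESeq2's Wald test gave 0.070.

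Because both desaturases are counted in the same library, their ratio does not depend on the scaling. Scd1 reads were 11.4%, 12.1% and 11.4% of the Scd1 and Scd2 reads in PBS control mice and 12.2%, 11.2% and 11.8% in tau acetate mice. In PBS acetate mice the share was 9.92%, 10.4% and 10.6%, and in tau control mice it was 10.5%, 9.98% and 10.3%. The 6 mice of the first pair of groups all lay above the 6 of the second pair. Scd1 was chosen for its values over these groups and Scd2 was not. The larger difference of Scd1 than of Scd2 is therefore a description and was not tested. Scd1 shares 4.56% of its 50-base exon stretches with other genes, mainly Scd3 and Scd2, and Scd2 shares 3.97%. Reads from those stretches cannot be assigned to 1 gene. Scd1 (chr19:44394455-44407879, minus strand) and Scd2 (chr19:44293674-44306864, plus strand) lie on chromosome 19 of GRCm38, with Scd4 between them.

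The first committed steps of synthesis varied little. Fasn had 380, 349 and 325 CPM in PBS control mice, 362, 360 and 370 CPM in PBS acetate mice, 352, 388 and 364 CPM in tau control mice, and 393, 361 and 379 CPM in tau acetate mice. The 4 groups overlapped one another. The log2 differences of Fasn were 0.04 to 0.06 in the 4 comparisons of 2 groups, and the interaction was -0.01 (95% interval -0.18 to 0.16, adjusted p = 0.980 by edgeR).

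Acaca had 44.4, 39.8 and 38.9 CPM in PBS control mice, 40.8, 37.9 and 33.9 CPM in PBS acetate mice, 38.5, 44.4 and 40.6 CPM in tau control mice, and 42.0, 38.6 and 38.4 CPM in tau acetate mice. All groups overlapped. Its log2 difference was furthest from 0 for acetate in PBS-injected mice, at -0.13 (95% interval -0.30 to 0.04, adjusted p = 0.384 by edgeR), and the interaction was 0.08 (95% interval -0.16 to 0.32). Of the 50-base stretches of Acaca, 30.4% also occur in other annotated genes, chiefly Gm5182 and Gm42553, the largest such share of the 10 genes, and reads from them cannot be assigned to 1 gene.

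Among the elongases, Elovl6, which extends palmitate to stearate, fell with acetate in PBS-injected mice. The gene lies at chr3:129532355-129638495 (plus strand). It had 81.2, 78.1 and 77.4 CPM in the PBS control mice and 64.7, 66.8 and 63.8 CPM in the PBS acetate mice, and these groups were well apart. In tau control mice it had 71.5, 74.2 and 84.7 CPM and in tau acetate mice 75.1, 74.8 and 62.4 CPM, with overlap. The log2 difference for acetate was -0.28 (SE 0.07, adjusted p = 0.045 by edgeR) in PBS-injected and -0.12 (SE 0.07, adjusted p = 0.600) in tau-injected mice. The interaction was 0.16 (95% interval -0.06 to 0.38, adjusted p = 0.557), so the 2 diet differences were not shown to differ. Tau control mice were not low for Elovl6, unlike for Scd1: the log2 difference of tau from PBS on the control diet was -0.04 (95% interval -0.19 to 0.12).

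Elovl7, an elongase of saturated and monounsaturated long chains, also fell with acetate in PBS-injected mice. The gene lies at chr13:108214404-108285683 (plus strand). It had 27.4, 20.4 and 23.2 CPM in PBS control, 18.5, 18.7 and 13.4 CPM in PBS acetate, 15.6, 18.8 and 20.7 CPM in tau control, and 21.8, 20.3 and 19.4 CPM in tau acetate mice. The PBS acetate mice lay below both the PBS control and the tau acetate mice. The log2 difference for acetate in PBS-injected mice was -0.49 (SE 0.14, adjusted p = 0.054 by edgeR). For tau on the control diet it was -0.37 (SE 0.14, adjusted p = 0.396) and for the interaction 0.65 (SE 0.19, adjusted p = 0.142), which DESeq2 called at 0.076. Elovl7 had the largest spread within groups, a coefficient of variation of 13.9%, of which counting alone gives 5.63%.

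The calls on these 2 elongases rested on single mice. Elovl6 had an adjusted p of 0.160, 0.133, 0.119 and 0.113 by edgeR without PBS acetate mouse 2, PBS acetate mouse 1, PBS control mouse 1 and PBS control mouse 3, and Elovl7 had 0.156, 0.105, 0.179 and 0.143 without the same mice and 0.110 without PBS acetate mouse 3. Their log2 differences stayed between -0.29 and -0.25 for Elovl6 and between -0.58 and -0.35 for Elovl7 with any 1 mouse left out.

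Elovl5, which elongates polyunsaturated chains, had 73.2, 66.4 and 72.5 CPM in PBS control, 61.8, 66.1 and 61.5 CPM in PBS acetate, 66.9, 60.0 and 62.2 CPM in tau control, and 69.0, 68.5 and 64.3 CPM in tau acetate mice. Elovl1, which makes very long saturated chains, had 15.4, 15.8 and 13.7 CPM in PBS control, 13.6, 12.9 and 13.4 CPM in PBS acetate, 10.8, 12.1 and 13.5 CPM in tau control, and 15.7, 13.2 and 12.8 CPM in tau acetate mice. In both genes the PBS acetate mice lay below the PBS control mice, by a narrow margin, and the tau acetate mice overlapped the tau control mice. The interaction was 0.26 for Elovl5 (SE 0.09, adjusted p = 0.194 by edgeR) and 0.37 for Elovl1 (SE 0.16, adjusted p = 0.323 by edgeR). Elovl1 had only 150 to 316 reads per mouse.

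The desaturases of polyunsaturated chains did not have the order of Scd1. Fads1 was the steadiest of the 10 genes, with 229 to 258 CPM over the 12 mice and a within-group coefficient of variation of 3.02%. Its log2 differences lay between 0.02 and 0.05, and the interaction was 0.02 (95% interval -0.13 to 0.16). Fads1 (chr19:10182888-10196877, plus strand) and Fads2 (chr19:10062765-10101746, minus strand) lie close together on GRCm38. Fads2 had 81.9, 92.5 and 80.7 CPM in PBS control mice and 106, 97.4 and 88.5 CPM in PBS acetate mice, which overlapped. Its log2 difference for acetate in PBS-injected mice was 0.19 (SE 0.08, adjusted p = 0.169 by edgeR), on the opposite side of 0 from the elongases and Scd2. In tau control mice Fads2 had 93.6, 100 and 84.4 CPM and in tau acetate mice 93.0, 89.7 and 103 CPM.

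Counted over the 9 genes other than Scd1, acetate in PBS-injected mice gave 2 calls at an adjusted p below 0.1 by edgeR, Elovl6 and Elovl7, both lower. The background was 8.84% of the 14742 genes in either direction and 4.85% lower. At an unadjusted p below 0.05 there were 5 (Scd2, Elovl5, Elovl6 and Elovl7 lower, Fads2 higher) against 20.8% of all genes, and DESeq2 called 3 (Scd2, Elovl6 and Elovl7) against 9.29%. Here and below, shares for DESeq2 are over the genes to which it gave an adjusted p. That number ran from 8001 to 16625 by comparison, so these shares have another base than those of edgeR. In 5 of the 9 the groups did not overlap, against 26.3% of all genes. The median log2 difference of the 9 was -0.16, and that of all genes 0.00.

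For tau on the control diet, edgeR called 0 of the 9 at an adjusted p below 0.1 against 0.0136% of all genes, and DESeq2 called 0 against 0.688%. At an unadjusted p below 0.05 there were 4 (Scd2, Elovl1, Elovl5 and Elovl7, all lower) against 9.65%, and 2 (Scd2 and Elovl1) did not overlap between groups against 13.5%. The PBS control mice are shared by this comparison and the acetate comparison in PBS-injected mice.

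For acetate in tau-injected mice, edgeR called 0 of the 9 at an adjusted p below 0.1 (0.0611% of all genes) and 0 at an unadjusted p below 0.05 (10.9%), DESeq2 called 0 (2.19%), and 0 were without overlap (14.4%). For tau on the acetate diet, edgeR called 0 of the 9 (0.136%) and 0 at an unadjusted p below 0.05 (10.3%), DESeq2 called 0 (0.674%), and 1, Elovl7, was without overlap (16.2%). For the interaction, edgeR called 0 of the 9 (1.56%), with 4 at an unadjusted p below 0.05 (Scd2, Elovl1, Elovl5 and Elovl7, all positive) against 13.0%, and DESeq2 called 2 (Scd2 and Elovl7) against 2.80%.

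**Figure D2:**
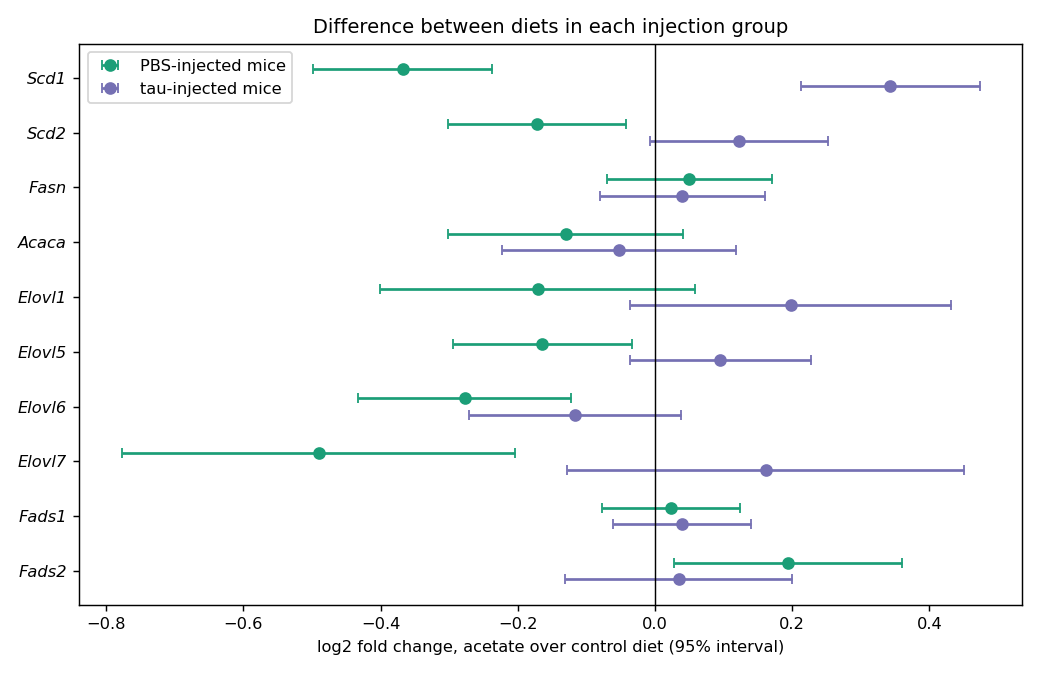
The horizontal axis gives the log2 fold change of acetate over control diet for each of the 10 genes, with points for the edgeR estimate from 3 mice against 3 and bars for its 95% interval, in PBS-injected and tau-injected mice. Scd1, Scd2, Elovl1, Elovl5 and Elovl7 lie below 0 in PBS-injected and above 0 in tau-injected mice, whereas Elovl6 lies below 0 in both at -0.28 and -0.12. Scd1 was chosen for this pattern.

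Levels can be compared between genes only per length, as CPM per kilobase of annotated exon. On this scale the median over the 12 mice was 271 for Scd2, 49.5 for Fads1, 36.4 for Scd1, 33.2 for Fasn, 28.2 for Fads2, 18.8 for Elovl5, 11.6 for Elovl6, 4.94 for both Elovl7 and Elovl1, and 2.30 for Acaca. Scd2 was above every other gene in every mouse. Scd1 ranged from 30.6 to 44.9, which overlapped the 29.7 to 35.9 of Fasn, and the ranges of Fasn and Fads2 (24.5 to 32.1) also overlapped between mice. Elovl7 and Elovl1 changed places when the longest transcript of each gene was used as its length.

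**Figure D3:**
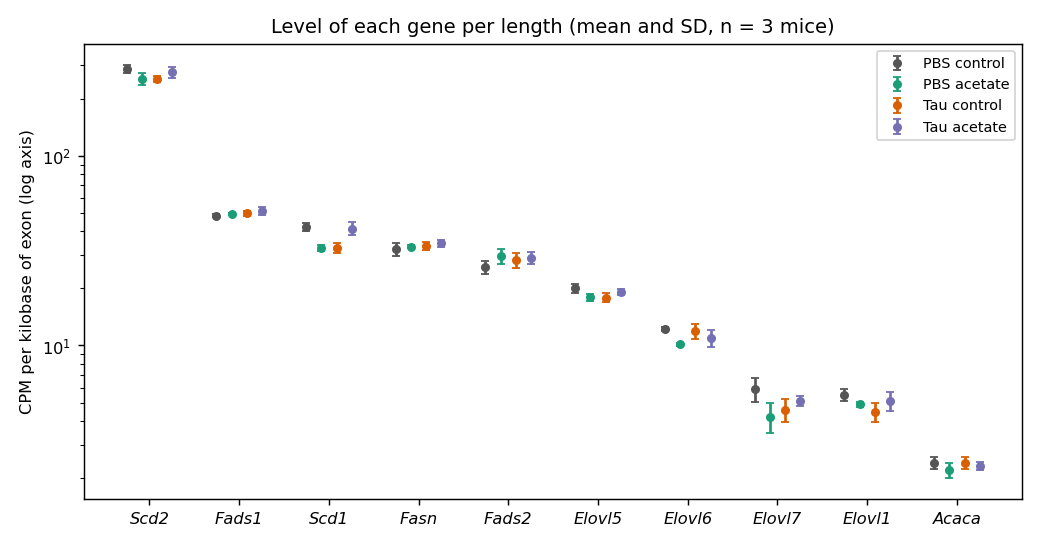
Points are group means of CPM per kilobase of exon on a log axis, with bars for the SD of 3 mice, for the 10 genes ordered by their median over all mice. Scd2 at 271 stands above Fads1 at 49.5, and Acaca at 2.30 is lowest.

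The genes whose log2 CPM followed that of Scd1 most closely over the 12 mice, by Pearson's r among 14741 genes, were Gjb1, Plekhb1 and Cldn11 (r = 0.96, 0.95 and 0.95), then Aif1l, Mbp, Myrf, Nkain1 and Apod (0.95, 0.94, 0.94, 0.94 and 0.94). Of these 8, 4 genes, Gjb1, Cldn11, Mbp and Myrf, were on a list of 22 oligodendrocyte and myelin genes; Mbp and Cldn11 are structural proteins of myelin, Gjb1 its gap junction protein and Myrf the transcription factor of myelination. Mbp had 3350 ± 387 CPM in PBS control, 2231 ± 337 in PBS acetate, 2143 ± 192 in tau control and 3094 ± 698 in tau acetate mice (SD, n = 3). By Spearman's rho, 3 of the 8 were again among the closest 8. The 12 mice share the 4 group means that chose Scd1, so these r are a description. Among the 9 enzymes Scd2 ranked 118th (r = 0.86), Elovl5 280th (0.77), Elovl1 342nd (0.74) and Elovl7 366th (0.73), whereas Fasn (-0.01), Fads1 (-0.15) and Fads2 (-0.37) ranked far lower.

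The 22 myelin genes moved with the same groups, though in their summed level the tau acetate mice overlapped both lower groups. Their summed level was 8332 to 10790 CPM in PBS control, 5274 to 7245 in PBS acetate, 5577 to 6768 in tau control and 6364 to 10235 in tau acetate mice, and none of the 22 was at 0. Their median log2 difference was -0.60 for tau on the control diet, -0.52 for acetate in PBS-injected mice, 0.52 for acetate in tau-injected mice, 0.45 for tau on the acetate diet and 1.06 for the interaction, with all 22 on 1 side of 0 each time. With acetate in PBS-injected mice edgeR called 7 of the 22 lower (8.84% of all genes were called in either direction) and DESeq2 called 13 (9.29%). For the interaction edgeR called 4 (1.56%) and DESeq2 20 (2.80%). In the other 3 comparisons edgeR called 0. For tau on the control diet (0.0136% of all genes called by edgeR) 21 had an unadjusted p below 0.05 (9.65%), and DESeq2 called 6 (0.688%). For acetate in tau-injected mice (0.0611%) 16 had an unadjusted p below 0.05 (10.9%), and DESeq2 called 5 (2.19%). For tau on the acetate diet (0.136%) 12 had an unadjusted p below 0.05 (10.3%), and DESeq2 called 1 (0.674%). The largest of the 22 differences with acetate in PBS-injected mice was that of Ugt8a, which makes galactolipids of myelin, at -0.84 (SE 0.24, adjusted p = 0.090 by edgeR). In bulk tissue, fewer oligodendrocytes and less RNA per cell cannot be told apart.

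Within groups, with the group means removed, Scd1 rose and fell with the myelin genes. The deviation of each mouse from its group mean in Scd1 and in the mean log2 level of the 22 genes had r = 0.87 and rho = 0.88 over 12 mice. Without tau acetate mice 1 and 3, which lay farthest out, r was 0.78. Scd1 was chosen on the same mice, and its separation of the groups also depends on its spread within them. These values of Scd1 are therefore a description and no test is given. For Scd2 r was 0.95 (exact within-group permutation p = 0.00154, adjusted p = 0.015 over the 10 genes) and rho 0.93 (exact permutation p = 0.00309, adjusted p = 0.026), and r was 0.98 without tau acetate mice 1 and 3. Of the 14742 genes, 0.916% had a higher r than Scd1 and 0.224% a higher r than Scd2.

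Elovl6 had r = 0.80 (exact permutation p = 0.0162, adjusted p = 0.054), rho = 0.80 (exact permutation p = 0.00772, adjusted p = 0.026) and r = 0.61 without the same mice. Elovl7 had r = 0.62 (exact permutation p = 0.0293, adjusted p = 0.073), rho = 0.71 (exact permutation p = 0.0201, adjusted p = 0.049) and r = 0.70 without them. Acaca had r = 0.59 (exact permutation p = 0.0687, adjusted p = 0.120), rho = 0.71 (exact permutation p = 0.0247, adjusted p = 0.049) and r = 0.59 without them. Elovl1 and Elovl5 had r = 0.62 and 0.38, Fasn 0.25, Fads2 -0.26 and Fads1 -0.68, with adjusted p of 0.120, 0.335, 0.474, 0.474 and 0.120 by the exact permutation test, and rho = 0.59, 0.44, 0.14, -0.02 and -0.46 in the same order. At an adjusted p below 0.1 by the exact permutation test, Elovl6 and Elovl7 thus varied with the myelin genes from mouse to mouse by r and by rho. Acaca did so by rho only, and Fasn showed no detectable relation. The group means of Elovl6 did not follow the order of Scd1.

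**Figure D4:**
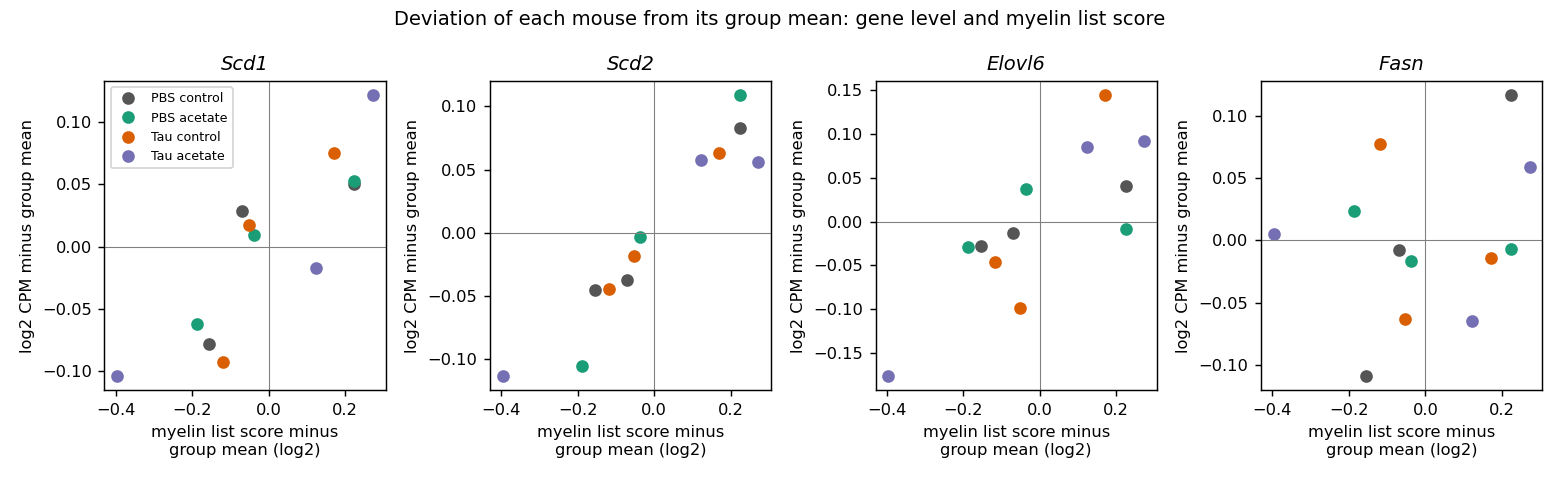
Each point is 1 of the 12 mice. The horizontal axis is the mean log2 level of 22 myelin genes minus its group mean and the vertical axis the log2 CPM of the gene minus its group mean, with color for the group. Points of Scd1 (r = 0.87), Scd2 (0.95) and Elovl6 (0.80) rise from left to right, and those of Fasn (0.25) are scattered.

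With the myelin score as a covariate, the log2 interaction was 0.40 for Scd1, -0.06 for Scd2, 0.12 for Elovl7, 0.15 for Elovl5 and 0.02 for Elovl1. In the same fit the acetate difference in PBS-injected mice was -0.20 for Scd1, -0.09 for Elovl6 and -0.21 for Elovl7, the last pair no longer called. The covariate itself differed between groups, so composition and treatment cannot be told apart in this fit. Markers of CA1 and CA3 moved as well between PBS acetate and PBS control mice. By edgeR 4 of 5 CA1 markers were called higher (list median 0.68, led by Mpped1 at 0.78). Of the CA3 markers 4 of 6 were called lower (list median -0.84, led by Iyd at -1.27). Mpped1 and Iyd are the markers with the largest difference. Of 8 dentate granule markers 0 were called (list median 0.21). Over all genes 8.84% were called in either direction and 4.85% lower. With the difference of the CA1 and CA3 scores as a covariate, acetate in PBS-injected mice gave a log2 difference of -0.16 for Elovl6, -0.65 for Elovl7 and -0.28 for Scd1. Elovl6 and Elovl7 were not called in that fit (adjusted p = 0.961 for both by edgeR), with a smaller difference for Elovl6 and a larger one for Elovl7 than without the covariate, and over all genes it called 0.

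Choroid plexus markers also differed between the groups. The summed level of the 10 markers was 362 to 422 CPM in PBS control, 270 to 285 in PBS acetate, 291 to 473 in tau control and 360 to 899 in tau acetate mice, and none was at 0. With acetate in PBS-injected mice their median log2 difference was -0.71, with 9 of 10 below 0. By edgeR 2, Folr1 and Otx2, were called lower, against 4.85% of all genes. Otx2 had the largest difference, at -1.81. The median was 1.42 for tau on the acetate diet. In that comparison edgeR called 0 (0.136% of all genes), 6 had an unadjusted p below 0.05 (10.3%), and DESeq2 called 4 (0.674%). For the interaction the median was 1.02, with 1, Folr1, called by edgeR (1.56%). Tau acetate mouse 3 stood apart with a mean marker score of 1.49 on the log2 scale, the other 11 mice lying at 0.54 or below. Without this mouse the log2 interaction was 0.76 for Scd1, 0.35 for Scd2 (adjusted p = 0.053 by edgeR, then called), 0.24 for Elovl6 and 0.69 for Elovl7. No choroid plexus score was fitted as a covariate, and tissue makeup and treatment cannot be told apart in the values of the 10 genes.

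Other genes around the pathway were taken from 9 lists with 114 symbols, of which 106 passed the filter. With acetate in PBS-injected mice 10 of the 106 were called by edgeR, 4 higher and 6 lower, or 9.43%, near the 8.84% of all genes. The same 8.84% stands beside each single list of this comparison. DESeq2 called 8 of the 106 (9.29% of the genes to which it gave an adjusted p). Over all genes, the 1303 edgeR calls became 15 without PBS acetate mouse 2, and the calls on single genes share that limit. Me1, the malic enzyme that supplies NADPH for synthesis, was lower, with 51.9, 42.1 and 48.5 CPM in PBS control against 40.2, 30.7 and 37.2 CPM in PBS acetate mice (log2 difference -0.40, SE 0.10, adjusted p = 0.041). It was the 1 gene called of 12 in acetyl-CoA and NADPH supply, where 10 of 12 lay below 0. Acly, which makes cytosolic acetyl-CoA from citrate, and Acss2, which makes it from acetate, had log2 differences of -0.11 (adjusted p = 0.249) and -0.08 (adjusted p = 0.573) by edgeR.

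Of the remaining elongation enzymes 1 of 8 was called, Elovl4, the elongase of very long chains, which fell from 59.1 ± 3.25 to 51.1 ± 1.25 CPM (SD, n = 3; log2 difference -0.21, adjusted p = 0.064 by edgeR). Of the remaining desaturases 1 of 5 was called, Degs1, which desaturates dihydroceramide, with 82.8, 82.2 and 79.0 CPM in PBS control and 66.7, 65.0 and 70.0 CPM in PBS acetate mice (log2 difference -0.27, SE 0.06, adjusted p = 0.025 by edgeR). For tau on the control diet Degs1 had a log2 difference of -0.22 (SE 0.06, adjusted p = 0.296 by edgeR). Its interaction was 0.29 (SE 0.09, adjusted p = 0.137 by edgeR), and edgeR called neither. Scd3 of that list had a log2 difference of -0.30 (SE 0.33) that did not pass the test. Acsf3, which activates malonate in mitochondria, was the 1 of 10 called among carboxylases and mitochondrial synthesis (0.29, adjusted p = 0.098 by edgeR), where DESeq2 called 0.

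Acsl4, which activates arachidonate, was lower (-0.31, SE 0.06, adjusted p = 0.020 by edgeR) and Slc27a1, a fatty acid transporter with synthetase activity, was higher (0.23, adjusted p = 0.062 by edgeR), 2 of 9 acyl-CoA synthetases. In glycerolipid synthesis 3 of 17 were called by edgeR, Agpat4 (-0.32) and Agpat5 (-0.22) lower and Gpam (0.18) higher, and 1 of 17 by DESeq2. Gpam catalyzes the first acylation and the Agpat enzymes the second. Nfyb, a subunit of the factor that binds CCAAT, was the 1 called of 20 transcription regulators (0.26, SE 0.07, adjusted p = 0.046 by edgeR), with 46.0, 49.5 and 49.4 CPM in PBS control and 57.6, 58.6 and 57.4 CPM in PBS acetate mice. Mlxipl (ChREBP) and Nr1h3 (LXR alpha) had log2 differences of 0.43 and -0.26 that did not pass the test. By edgeR 0 of 17 fatty acid oxidation genes and 0 of 8 binding and uptake genes were called, also 0 of each at an unadjusted p below 0.05, and DESeq2 called 0 and 1.

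With acetate in tau-injected mice 1 of the 106 was called by edgeR (0.0611% of all genes), 20 had an unadjusted p below 0.05 (10.9%), and DESeq2 called 3 (2.19%). The 1 called was Plin4, a lipid droplet coat protein, with 5.01, 4.66 and 5.65 CPM in tau acetate against 2.02, 1.66 and 2.44 CPM in tau control mice (log2 difference 1.33, SE 0.22, adjusted p = 0.047). In PBS control mice Plin4 had 3.67, 2.70 and 4.54 CPM and in PBS acetate mice 2.78, 2.42 and 2.68 CPM, and its interaction was 1.80 (SE 0.31, adjusted p = 0.026 by edgeR), the 1 called of 106 (1.56% of all genes), with 15 at an unadjusted p below 0.05 (13.0%) and 1 by DESeq2 (2.80%). Srebf1, the transcription factor that drives Fasn and Scd1 in liver, had a log2 difference of 0.31 (SE 0.08, adjusted p = 0.182 by edgeR) and Insig2, which retains SREBP in the endoplasmic reticulum, one of -0.29 (SE 0.07, adjusted p = 0.168). Neither passed the test by edgeR. On the list of 20 transcription regulators that holds both genes, DESeq2 called 2 (2.19% of the genes to which it gave an adjusted p).

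For tau on the control diet edgeR called 0 of the 106 (0.0136% of all genes), with 11 at an unadjusted p below 0.05 (9.65%) and 0 by DESeq2 (0.688%). For tau on the acetate diet edgeR called 0 (0.136%), with 8 at an unadjusted p below 0.05 (10.3%) and 1 by DESeq2 (0.674%). In these 2 comparisons the median log2 difference of the 106 was -0.03 and 0.01.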

How the data were processed

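Bulk RNA-seq counts from the dorsal hippocampus of 12 mice in 4 groups of 3 were used, grouped by the sample labels. The authors aligned reads to GRCm38 with STAR (2.5.2a in the submitters' processing notes), counted them per gene on the reverse strand with HTSeq 0.9.1, and deposited raw counts without normalization. The labels name a directional library kit and the study's methods another catalogue number of that series. No rows lacked a gene name, and all sample columns were used.

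Genes were kept with filterByExpr (minimum count 10, minimum total 15), which left 14742. Counts were fitted in edgeR 4.0.16 (R 4.3.3) with TMM scaling (factors 0.99 to 1.01) and 1 mean per group over all 12 mice, which leaves 8 residual degrees of freedom, and compared by the quasi-likelihood F test with robust dispersion. The Benjamini-Hochberg adjustment ran over all 14742 genes, with a call below 0.1. SEs were derived from the F statistic, and log2 levels used a prior count of 2. The methods of the study name DESeq2, which was the alternative tool (1.42.0, Wald test on 12 mice). The common biological coefficient of variation was 7.25%. All replicates of a group differed by more than counting noise (chi-square per degree of freedom 3.46 to 7.51). The scripts were tested on simulated data.

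The members, lists and tests were chosen with earlier results of these data known. Named are all 10 members, every called gene of the 9 pathway lists and up to 3 with the largest change per list, the 8 genes most like Scd1, and the leading gene of each cell type list described. Acly and Acss2 fall outside this rule and were named after their values were seen. The relation within groups to the myelin score (exact permutation over 1296 arrangements within groups, two-sided) was added after the values were seen. Its p-values were adjusted over the 10 members and are not given for Scd1. Lengths, coordinates and shared 50-base stretches came from GENCODE M21 on GRCm38, and promoters from RefSeq on GRCm38.p6. Alternatives were DESeq2 size factors, no filter, DESeq2, the 6 compared mice, a threshold of 0.05, the replicate number as a block, a myelin or CA1 minus CA3 score as a covariate, each mouse left out, CPM without TMM, Spearman's rho and the longest transcript.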

Additional observations from a re-analysis of the deposited data

Results flagged for a closer look

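In 5 genes every acetate mouse lay on 1 side of the control diet mean among PBS-injected mice and on the other side among tau-injected mice. The difference between the 2 diet effects, on the log2 scale, was 0.71 for Scd1, which was chosen for this and was not tested. It was 0.29 for Scd2, 0.37 for Elovl1, 0.26 for Elovl5 and 0.65 for Elovl7, and in these 4 the interaction did not pass an adjusted p of 0.1 by edgeR (0.139, 0.323, 0.194 and 0.142). In Scd2 and Elovl7 it passed by DESeq2 (0.070 and 0.076). The summed level of 22 myelin genes had its higher medians in the same groups as Scd1. Its tau acetate mice (6364 to 10235 CPM) overlapped both the PBS acetate (5274 to 7245 CPM) and the tau control mice (5577 to 6768 CPM). With the myelin score as a covariate the interaction was 0.40 for Scd1, -0.06 for Scd2, 0.02 for Elovl1, 0.15 for Elovl5 and 0.12 for Elovl7. That score differed between groups, so composition and treatment cannot be told apart in these values.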

How the results depend on the processing

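Log2 differences of the 10 genes kept sign and side of the threshold with DESeq2 size factors, without the filter, in the 6 compared mice (4 comparisons) and with the replicate block. The replicate numbers did not pair the mice: same-numbered mice correlated between -0.10 and 0.14, and 5 of 18 pairs correlated best with their own number. With the replicate block 2 of the 9 other genes were called for acetate in PBS-injected mice, as without it, and over all genes the calls went from 2 to 9 for tau on the control diet and from 230 to 349 for the interaction. Of the 2 calls for acetate in PBS-injected mice 1 remained below 0.05 (Elovl6), 0 with the myelin covariate and 0 with the CA1 minus CA3 covariate. With 1 mouse left out the number ranged from 0 to 2, and without PBS acetate mouse 3 Fads2 was called (adjusted p = 0.077) in place of Elovl7. For the interaction DESeq2 called 2 genes, and with 1 mouse left out edgeR called 0 to 1, Scd2 without tau acetate mouse 3 (adjusted p = 0.053). Over all genes, the 1303 calls for acetate in PBS-injected mice became 15, 315, 248 and 727 without PBS acetate mice 2 and 1 and PBS control mice 3 and 1, the 230 for the interaction ranged from 8 (without PBS acetate mouse 2) to 442 (without tau acetate mouse 3), and DESeq2 called 86, 175 and 112 where edgeR called 2, 9 and 20.

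With the myelin score as a covariate the log2 difference changed sign and became 0.027 in Scd2, 0.16 in Elovl6 and -0.037 in Fads1 for tau on the control diet, 0.014 in Scd2, 0.011 in Acaca, 0.012 in Elovl1 and -0.044 in Fads1 for acetate in PBS-injected mice, -0.042 in Scd2 and -0.089 in Elovl7 for acetate in tau-injected mice, -0.029 in Scd2, -0.028 in Acaca, -0.082 in Elovl1, -0.031 in Elovl6 and 0.019 in Fads2 for tau on the acetate diet, and -0.055 in Scd2, -0.19 in Acaca and -0.19 in Elovl6 for the interaction. With the CA1 minus CA3 score as a covariate the log2 difference changed sign and became -0.039 in Acaca, 0.013 in Elovl6 and -0.0013 in Fads1 for tau on the control diet, 0.031 in Elovl1, -0.060 in Fads1 and -0.046 in Fads2 for acetate in PBS-injected mice, -0.032 in Fads2 for acetate in tau-injected mice, 0.033 in Fads2 for tau on the acetate diet, and 0.014 in Fads2 for the interaction. None of these values was called before, and the causes were not tested. With 1 mouse left out 18 values changed sign, in Acaca for tau on the control diet (-0.054 to 0.065), Elovl6 for tau on the control diet (-0.11 to 0.0089), Fasn for acetate in PBS-injected mice (-0.0037 to 0.12), Acaca for acetate in tau-injected mice (-0.094 to 0.0054), Fads2 for acetate in tau-injected mice (-0.029 to 0.095), Elovl1 for tau on the acetate diet (-0.035 to 0.12), Fads2 for tau on the acetate diet (-0.092 to 0.032), Fasn for the interaction (-0.070 to 0.043) and Fads1 for the interaction (-0.021 to 0.046). With 3 mice a group, differences of the size seen in Fasn, Acaca and Fads1 were not detectable. The spread within groups, which includes counting error, exceeded counting error alone in all 10 genes. For Elovl1 the coefficient of variation within groups was 8.80%, against 6.81% for counting alone.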
